A study of Mus musculus with 6 samples.

Results

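Cathepsins and their inhibitors, the cystatins, were followed as RNA in tumor initiating cells (TICs) and in the other tumor cells of the same mouse model. The 10 genes were chosen by name, as the rows of the count files whose Ensembl identifier carries the symbol Ctsl, Ctsb, Ctsk, Ctss, Ctsz, Ctsh, Ctsd, Ctsa, Cst3 or Cstb. All 10 were found among the 41388 genes of the files, and all 10 passed the filter on low counts, which 12192 genes passed. TICs were CD24+CD90+CD45- cells (n = 3 samples), and the control group, called non-TIC here, was the non-CD24+CD90+ tumor cells (n = 3 samples). The labels call the control samples only primary cells, the series text describes them as lacking both CD24 and CD90, and the study's methods describe them as the tumor cells outside the double-positive gate. All 6 samples came from primary mammary tumors of MMTV-PyMT mice, strain FVB/N-TgN(MMTVPyVT)634Mul/J, in which the MMTV promoter drives the polyoma middle T antigen in mammary epithelium. The mice were 12 weeks old by the text of the study, CD45+ cells had been gated out of both groups, and no drug or further allele was involved. For every sample 4 cell sorts had been pooled, so the spread between samples is that between pools.

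Cathepsins are proteases that are made as inactive precursors, carried to the lysosome largely by mannose 6-phosphate receptors and activated there by removal of the propeptide. Most are cysteine proteases of the papain family. Cathepsin D is an aspartic protease and cathepsin A a serine carboxypeptidase. When cathepsins are secreted by tumor or stromal cells they can cleave extracellular matrix, and cysteine cathepsins have been studied for this reason in MMTV-PyMT tumors. Cystatins are small proteins that block the active site cleft of cysteine cathepsins reversibly. Cystatin C (Cst3) is secreted, whereas cystatin B (Cstb), also called stefin B, stays inside the cell. Neither acts on cathepsin D or cathepsin A.

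The parts of the transcripts that encode these opposing functions are shown because the balance between them is examined further on. For the 6 cysteine cathepsins the codon of the catalytic cysteine is in capitals, within 5 codons upstream and 6 downstream, read from the coding sequences of GENCODE M21 on GRCm38.
Ctsl: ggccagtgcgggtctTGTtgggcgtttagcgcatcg
Ctsb: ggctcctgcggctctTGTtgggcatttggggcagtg
Ctsk: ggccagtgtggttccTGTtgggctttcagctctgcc
Ctss: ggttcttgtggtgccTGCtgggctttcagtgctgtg
Ctsz: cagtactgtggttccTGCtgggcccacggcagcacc
Ctsh: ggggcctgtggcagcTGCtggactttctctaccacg
The cysteine was located by a residue pattern that requires a tryptophan directly after it. The tgg codon that follows in all 6 was therefore set by the search. The stretch of Ctsl lies on the minus strand at chr13:64367057-64367092, that of Ctsk on the plus strand at chr3:95502582-95502617 and that of Ctss on the plus strand at chr3:95545333-95545368. Those of Ctsz on the minus strand at chr2:174438178-174438213 and of Ctsh on the plus strand at chr9:90064507-90064542 also lie within an exon each, whereas that of Ctsb on chromosome 14 crosses an exon junction.

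For the cystatins the 5 codons of the first inhibitory loop, which enters the active site cleft, are in capitals, with 5 codons before and 6 after. The loop was likewise located by a residue pattern: glutamine, any residue, valine, any residue, glycine.
Cst3: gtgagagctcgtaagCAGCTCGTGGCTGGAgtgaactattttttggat
Cstb: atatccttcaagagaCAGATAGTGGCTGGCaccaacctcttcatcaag
The loop of Cstb lies at chr10:78426981-78427028 on the plus strand, and that of Cst3 on chromosome 2 crosses an exon junction. Over the whole translated coding sequence Cst3 and Cstb were 27.1% identical in 96 aligned residues. Among the cysteine cathepsins identity ran from 30.7% (Ctsl and Ctsb) to 58% (Ctsk and Ctss). Ctsl shared 48.8% of aligned residues with Ctsk and 51.5% with Ctss.

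The comparison of TICs with non-TIC cells asked which of these genes were expressed at another level in the tumor initiating population. Ctsl was higher in TICs, by 1.03 on the log2 scale, and it was the only member that passed the test. Ctsk and Ctss also lay higher in every TIC sample than in every non-TIC sample, but neither passed. The remaining cathepsins and both cystatins overlapped between the groups. Values are normalized CPM, the counts of a gene relative to the library total, adjusted by TMM for differences in library make-up, and a gene was called when its adjusted p in edgeR's exactTest was below 0.1. Total counts were 6781239 to 8450038 per non-TIC sample and 8114933 to 9100552 per TIC sample, so that 3 counts stood for 0.33 to 0.44 CPM.

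**Figure D1:**
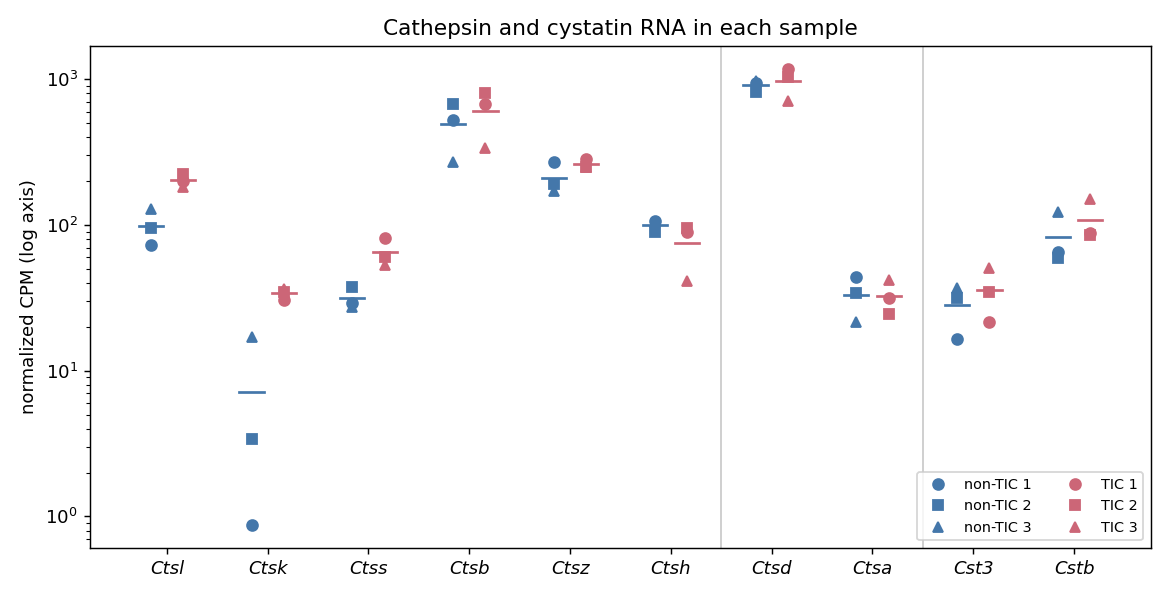
Normalized CPM of the 10 genes (log axis) in the 3 non-TIC samples (blue) and the 3 TIC samples (red), each sample with its own symbol and each group mean as a horizontal line. Grey lines part the cysteine cathepsins, the other cathepsins and the cystatins. The groups are separate for Ctsl, Ctsk and Ctss and overlap for the other 7.

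Ctsl encodes cathepsin L, an endopeptidase that degrades lysosomal cargo and can also be secreted. Its gene is ENSMUSG00000021477, on the minus strand at chr13:64359337-64370890 (GRCm38). Ctsl stood at 73.1, 95.2 and 129 CPM in non-TIC samples 1 to 3 and at 201, 224 and 183 CPM in TIC samples 1 to 3. Every TIC sample was above every non-TIC sample, and the nearest were non-TIC 3 and TIC 3. The means were 202 ± 20.5 in TICs and 99.02 ± 28.0 CPM in non-TIC cells (SD, n = 3 each). The log2 difference was 1.03 (SE 0.32), with an adjusted p of 0.0998 in exactTest of edgeR. This lies just under the threshold: the adjusted p was 0.229 in edgeR's quasi-likelihood test and 0.0420 in DESeq2. In exactTest it was 0.177 with scaling by library size alone and 0.220 with no filter on low counts. With RLE factors it was 0.0853, and with at least 10 counts in every sample 0.0376. Over the 6 fits that each left out a sample it ran from 0.097 to 0.573, and only the fit without TIC 3 kept the call. The log2 difference was between 0.865 and 1.27 in these fits.

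Ctsk encodes cathepsin K, the collagen-degrading protease best known from osteoclasts and also made by fibroblasts. Its gene is ENSMUSG00000028111, at chr3:95499256-95509362 on the plus strand. Ctsk stood at 0.876, 3.40 and 17.0 CPM in the non-TIC samples, from 6, 30 and 119 counts. In the TIC samples it stood at 30.7, 34.6 and 36.3 CPM, from 279, 297 and 275 counts. The TIC samples lay close together, whereas the non-TIC samples were spread widely, with non-TIC 3 well above the other two. The means were 33.9 ± 2.89 and 7.10 ± 8.68 CPM (SD, n = 3 each), a log2 difference of 2.25 (SE 0.92). This was the widest difference among the 10 genes, but with the spread in the non-TIC samples its adjusted p in edgeR was 0.438. Without non-TIC 3 the log2 difference was 3.96 with an adjusted p of 0.0595, while in the other fits that left out a sample or changed a setting it was not called.

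Ctss encodes cathepsin S, which trims the invariant chain of MHC class II in antigen presenting cells. Its gene, ENSMUSG00000038642, lies at chr3:95526786-95556403 on the plus strand, 17.42 kb from that of Ctsk. Ctss stood at 29.0, 37.7 and 27.2 CPM in non-TIC cells and at 81.7, 60.4 and 52.8 CPM in TICs. The groups did not overlap, and TIC 1 was the highest sample. The means were 64.9 ± 15.0 in TICs and 31.3 ± 5.60 CPM in non-TIC cells (SD, n = 3 each), and the log2 difference was 1.05 (SE 0.45), as large as that of Ctsl. The adjusted p in edgeR was 0.444, and Ctss was called in none of the 12 alternatives.

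The other 3 cysteine cathepsins overlapped between the groups. Ctsb (ENSMUSG00000021939, chr14:63122462-63145923, plus strand) encodes cathepsin B, an endopeptidase and carboxydipeptidase. Ctsb stood at 522, 676 and 269 CPM in non-TIC cells and at 679, 805 and 340 CPM in TICs. Sample 3 of each group was low, but the sample numbers follow the order of deposit, and the labels do not link the pools of the 2 groups to mice. The study's supplement counts no more mice than the pools of a single group need. Read for both groups, this means that they shared mice, but the supplement does not say which pools match. The log2 difference of Ctsb was 0.31 (SE 0.39). Ctsz (ENSMUSG00000016256, chr2:174427493-174439039, minus strand) encodes cathepsin Z, a carboxypeptidase. It stood at 272, 190.4 and 171 CPM in non-TIC cells and at 284, 249 and 250.4 CPM in TICs, where non-TIC 1 alone reached into the TIC range, and its log2 difference was 0.30 (SE 0.30). Ctsh (ENSMUSG00000032359, chr9:90054152-90076089, plus strand) encodes cathepsin H, which is mainly an aminopeptidase. It stood at 107, 89.0 and 104 CPM in non-TIC cells and at 89.8, 94.7 and 41.0 CPM in TICs, with TIC 3 far below the others. Its log2 difference was -0.41 (SE 0.39), the lowest of the 10. The adjusted p in edgeR was 0.999 for Ctsz and Ctsh and 1 for Ctsb.

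Ctsd and Ctsa, which are not cysteine proteases, had mean levels close to each other in the 2 groups. Ctsd (ENSMUSG00000007891, chr7:142375911-142388038, minus strand) stood at 945, 817 and 969 CPM in non-TIC cells and at 1179.5, 1034 and 704 CPM in TICs. TIC samples held both the highest and the lowest value, and the log2 difference was 0.10 (SE 0.29). Ctsa (ENSMUSG00000017760, chr2:164832873-164841032, plus strand) also encodes the protein that protects lysosomal sialidase and β-galactosidase. It stood at 43.6, 33.9 and 21.7 CPM in non-TIC cells and at 31.5, 24.4 and 42.2 CPM in TICs, with a log2 difference of -0.02 (SE 0.57), and it was higher in TICs under some scalings, by 0.016 with RLE. Both had an adjusted p of 1 in edgeR. With the standard error of Ctsa, a moderate difference was not detectable in this gene.

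Neither cystatin passed the test. Cst3 (ENSMUSG00000027447, chr2:148871722-148875692, minus strand) stood at 16.5, 31.3 and 36.8 CPM in non-TIC cells and at 21.5, 34.7 and 50.8 CPM in TICs. Cstb (ENSMUSG00000005054, chr10:78425669-78427622, plus strand) stood at 64.8, 59.3 and 123 CPM in non-TIC cells and at 88.4, 84.8 and 150.4 CPM in TICs. Sample 3 of each group was the highest for both genes, and the groups overlapped. The log2 difference was 0.34 (SE 0.60) for Cst3 and 0.39 (SE 0.40) for Cstb, each with an adjusted p of 1 in edgeR.

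**Figure D2:**
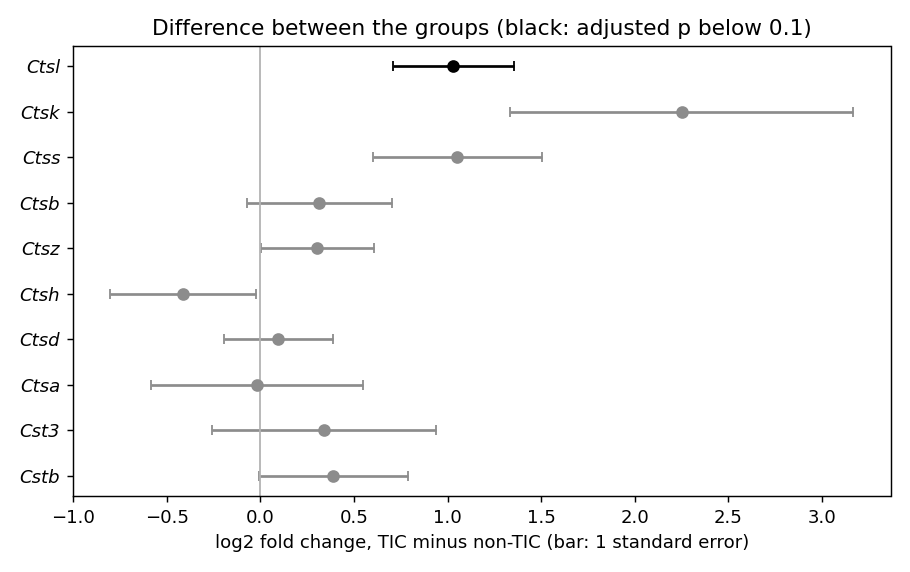
Log2 fold change of TIC against non-TIC samples for each gene, with bars of 1 standard error from the fit across all genes. Ctsl, at 1.03, is the gene with an adjusted p below 0.1 (black); Ctsk at 2.25 has the widest bar, and 8 of the 10 lie above 0.

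Thus 1 of the 10 genes was called higher in TICs, beside 1.36% of all genes tested, and none was called lower, beside 0.189% of all genes. In 3 of the 10 every TIC sample was above every non-TIC sample, beside 7.69% of all genes, and in none was every TIC sample below, beside 7.55%. The log2 difference was positive for 8 of the 10, with a median of 0.33, while the median over all genes tested was -0.01 and 6061 of 12192 were positive. Within the list the 6 cysteine cathepsins had a median of 0.67 and the cystatins of 0.37.

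The levels of different genes were compared per kilobase of a reference transcript, in normalized CPM per kilobase over all 6 samples. Ctsd was the most abundant, at 331 to 555, and its range lay above those of the other 9 genes. Ctsz (119 to 197), Cstb (98.4 to 249.5) and Ctsb (56.7 to 169.7) came next, and their ranges overlapped. Ctsl ranged from 37.1 to 113.5, Ctsh from 25.4 to 66.3, Cst3 from 19.2 to 59.1 and Ctss from 20.1 to 60.3, again with overlap between neighbours. Ctsk (0.579 to 24.0) and Ctsa (5.96 to 11.97) were the least abundant. The genes that lay higher in all TIC samples were therefore not the most abundant cathepsins of these cells.

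The make-up of the summed cysteine cathepsin RNA was then compared. Ctsh made up 13.5% to 19.2% of the summed cysteine cathepsin level per kilobase in non-TIC cells and 5.95% to 10.1% in TICs. Ctss made up 5.05% to 6.81% in non-TIC cells and 7.66% to 10.4% in TICs, and Ctsk 0.136% to 3.34% and 3.51% to 5.63%. These 3 shares did not overlap between the groups. That of Ctsl did, at 8.74% to 19.4% in non-TIC cells and 17.6% to 21.7% in TICs, with non-TIC 3 the highest of its group. Ctsz held 32.4% to 44.5% in non-TIC cells and 29.7% to 40.8% in TICs, and Ctsb 16.8% to 34.9% and 16.8% to 29.2%. Shares within a sum are not independent of each other, and no test was run on them.

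**Figure D3:**
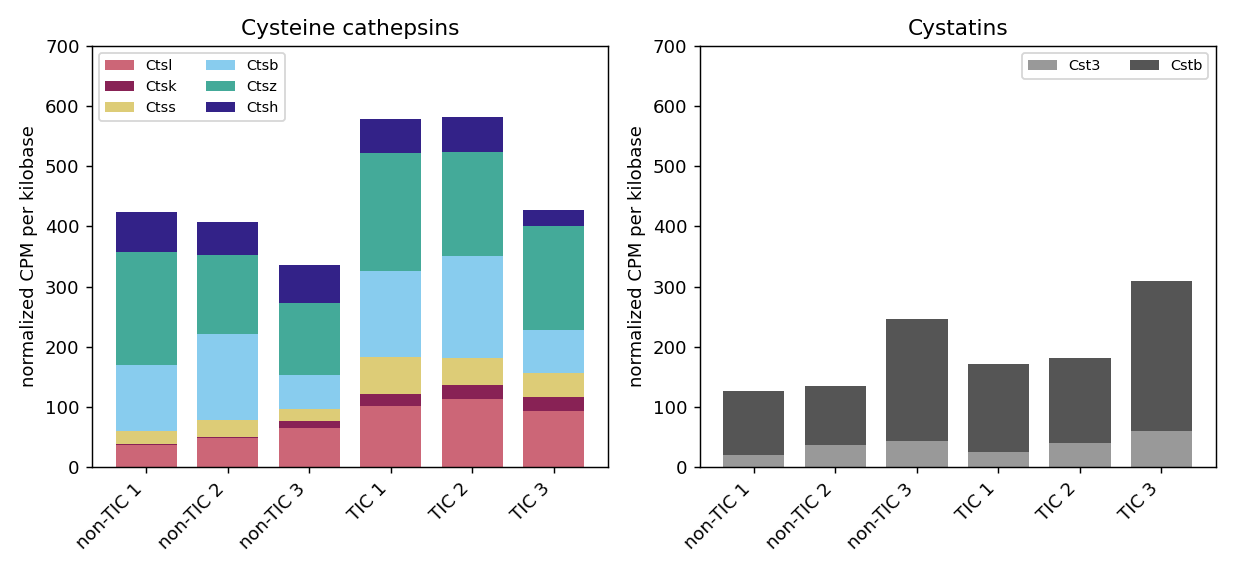
Stacked levels in normalized CPM per kilobase for the 6 cysteine cathepsins (left) and the 2 cystatins (right) in each sample. The summed cysteine cathepsins run from 336.6 to 424.6 in non-TIC and from 426.4 to 581.7 in TIC samples, and the summed cystatins are highest in sample 3 of each group.

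The protease to inhibitor balance was taken as the summed level per kilobase of the 6 cysteine cathepsins over that of Cst3 and Cstb within each sample, which does not depend on library size. It covers members only. Cst10, Ctsc and Ctsf, given further on, were left out, and no alternative added them. The CPM range of Cst10 overlapped that of Cstb in both groups. The balance of these members did not separate the groups. The summed cysteine cathepsins were 424.6, 408 and 336.6 in non-TIC samples and 577.9, 581.7 and 426.4 in TIC samples, so that TIC 3 was barely above non-TIC 1. The summed cystatins were 126.6, 134.8 and 246.3 in non-TIC samples and 171.6, 181 and 308.5 in TIC samples, and these overlapped. The mean log2 difference was 0.43 for the proteases and 0.40 for the inhibitors. The ratio was 3.35, 3.03 and 1.37 in non-TIC samples and 3.37, 3.21 and 1.38 in TIC samples. The means were 2.66 ± 1.11 in TICs and 2.58 ± 1.07 in non-TIC cells (SD, n = 3 each), and the mean log2 ratio differed by 0.04, against a pooled SD between samples of 0.72. This SD is unpaired and describes the spread between samples. It is not a detection limit, since no test was run on the balance. With this spread a moderate shift, also one above the SD, could go unseen. The low ratio of sample 3 in each group came with low Ctsb and high Cstb in those samples.

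Single proteases set against the summed cystatins gave mean log2 differences of both signs. These were 2.79 for Ctsk, 0.67 for Ctsl, 0.65 for Ctss, -0.06 for Ctsz, -0.07 for Ctsb and -0.90 for Ctsh. The Ctsl ratio was 0.293, 0.358 and 0.265 in non-TIC cells and 0.593, 0.627 and 0.301 in TICs, and TIC 3 lay within the non-TIC range. The Ctsb ratio overlapped fully, with 0.870, 1.06 and 0.230 in non-TIC cells and 0.834, 0.938 and 0.232 in TICs. The Ctsk ratio, at 0.00457 to 0.0457 in non-TIC cells and 0.0778 to 0.127 in TICs, was the only one of the 6 without overlap.

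Ratios among the proteases themselves were chosen after their values were seen and are given as a description. Ctsl over Ctsd was 0.0835, 0.126 and 0.143 in non-TIC cells and 0.184, 0.234 and 0.280 in TICs. The sum of Ctsl, Ctsk and Ctss over that of Ctsb, Ctsz and Ctsh was 0.162, 0.238 and 0.403 in non-TIC cells and 0.461, 0.452 and 0.575 in TICs. In both ratios all TIC samples were above all non-TIC samples, with mean log2 differences of 0.998 and 0.984.

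**Figure D4:**
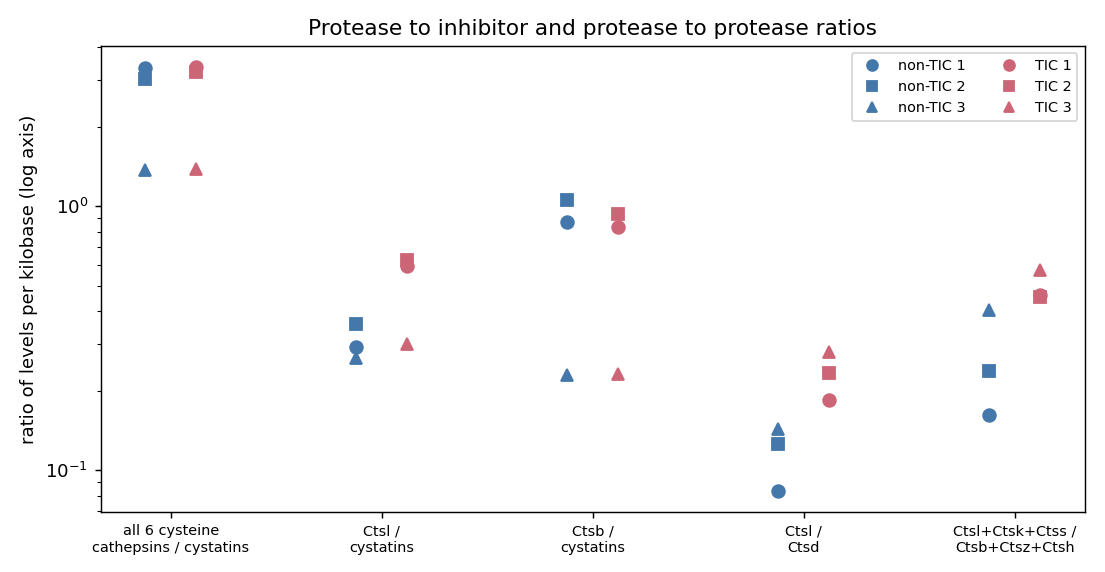
Ratios of levels per kilobase (log axis) in each non-TIC (blue) and TIC (red) sample. The balance of all 6 cysteine cathepsins against the cystatins has the same pattern in both groups, near 3 in samples 1 and 2 and near 1.4 in sample 3, while Ctsl over Ctsd and the ratio of the 3 higher to the 3 other proteases are separate.

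Few of the genes that act with the cathepsins were called, and with wide standard errors an uncalled gene is not shown to be level between the groups. Of 34 further cathepsins, cystatins and related inhibitors in the files, 21 were at 0 counts throughout, and of the 4 abundant enough to be tested none was called (median log2 difference 0.11). Cst10, a cystatin, ran from 7.73 to 97.4 CPM in non-TIC cells and from 33.0 to 215 CPM in TICs, where TIC 1 and TIC 3 lay above the non-TIC range and TIC 2 within it. Ctsc, the dipeptidyl peptidase that activates serine proteases of granules, ran from 55.6 to 77.0 and from 47.2 to 96.8 CPM. Ctsf ran from 13.8 to 24.0 and from 9.76 to 36.1 CPM.

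None of the 14 genes for lysosomal sorting and processing was called in either direction (median -0.02). Lgmn encodes legumain, a protease that processes cathepsin precursors, and stood at 89.9, 87.3 and 139.7 CPM in non-TIC cells and at 154, 124 and 174 CPM in TICs (log2 difference 0.51, SE 0.33, adjusted p 0.879 in edgeR). Gga2, an adaptor of mannose 6-phosphate receptors, stood at 248, 236 and 264 CPM in non-TIC cells and at 215, 198 and 142.5 CPM in TICs, with an adjusted p of 0.904 in edgeR. Scarb2, the receptor of β-glucocerebrosidase, differed by -0.04 on the log2 scale.

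Of 34 other lysosomal hydrolases and cofactors tested, 1 was higher, beside 1.36% of all genes, and none lower, beside 0.189% (median 0.01). The gene called was Hexa, the α subunit of β-hexosaminidase, at 56.8, 31.8 and 29.5 CPM in non-TIC cells and 115, 64.1 and 155 CPM in TICs. Its log2 difference was 1.502 (SE 0.43), with an adjusted p of 0.0684 in edgeR. The most abundant of the list, Psap, Gaa and Fuca1, differed by -0.07, -0.31 and 0.06 on the log2 scale. None of 23 tested genes of the lysosomal membrane and its acidification was called (median -0.13), but 16 had a negative log2 difference. For 3 of them every TIC sample was below every non-TIC sample, beside 7.55% of all genes. For 1, Lamp2, every TIC sample was above, beside 7.69% of all genes. The list, summed, stood at 3275 to 3351 CPM in non-TIC cells and 2605 to 3125 CPM in TICs. Among its genes Cd63, Lamp1 and Atp6v0e, a subunit of the proton pump, differed by -0.12, -0.05 and -0.43.

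**Figure D5:**
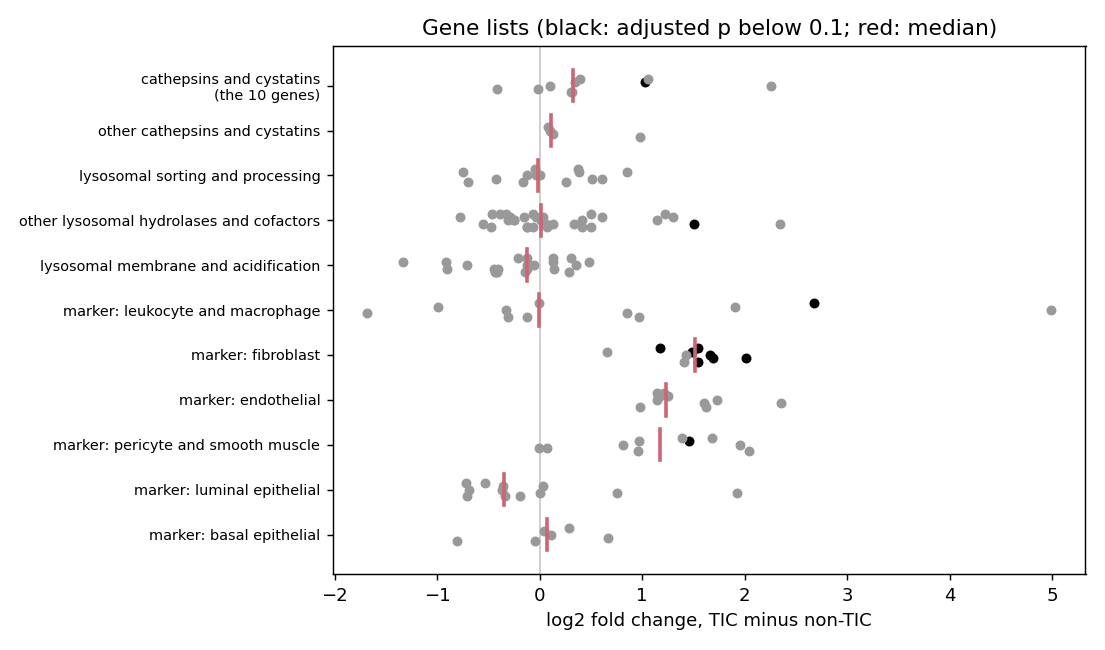
Log2 fold change of each tested gene (points) in the 10 cathepsins and cystatins, 4 lists of related or lysosomal genes and 6 lists of cell type markers, with called genes in black and the median in red. The fibroblast list lies highest, with a median of 1.51, and the medians of the lysosomal lists run from -0.13 to 0.01.

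Lists of cell type markers were read from the same fit, and the fibroblast markers were those most often called. Over all genes tested, 1.36% were called higher and 0.189% lower. The fibroblast markers, summed, stood at 3005 to 3347 CPM in non-TIC cells and 7844 to 11208 CPM in TICs, and 7 of 10 were called higher. For 9 of these 10 every TIC sample was above every non-TIC sample, beside 7.69% of all genes. The leukocyte and macrophage markers summed to 129.7 to 155 CPM in non-TIC cells and 181 to 337 CPM in TICs, where 1 of the 11 tested of 15, Lyz2, was called higher. The median log2 difference of these 11 was -0.01, with 5 positive and 6 negative. Every TIC sample was above every non-TIC sample for 4 of them, C1qa, C1qb, Laptm5 and Lyz2, beside 7.69% of all genes. Among the markers below the filter, Adgre1 had no count in any sample. Ptprc, which encodes the CD45 of the sort, had 33 counts in non-TIC 1 and none in the other 5 samples. Itgam had 63 and 4 counts in TIC 1 and TIC 2 and Tyrobp 14 in TIC 3, and neither had counts in non-TIC cells. The pericyte and smooth muscle markers stood at 490.2 to 661 CPM in non-TIC cells and 867 to 1371 CPM in TICs. Of these 10, 1 was called higher and 9 had a positive log2 difference, with a median of 1.17. All TIC samples were above all non-TIC samples for 4 of them, beside 7.69% of all genes. The endothelial markers stood at 242 to 325 and 323 to 1495 CPM. None of these 10 was called, but all 10 had a positive log2 difference, with a median of 1.23. All TIC samples were above all non-TIC samples for 1 of them, beside 7.69% of all genes. The luminal epithelial markers, summed, stood at 8271 to 8969 CPM in non-TIC cells and 5514 to 7595 CPM in TICs. None of these 12 was called, but 9 had a negative log2 difference, with a median of -0.35. For 4 of them every TIC sample was below every non-TIC sample, beside 7.55% of all genes. The basal markers overlapped at 797 to 1322 and 638 to 1034 CPM. Of the genes of the gate, Thy1 (CD90) differed by 1.25 on the log2 scale (adjusted p 0.3497 in edgeR), with TIC 3 at 70.3 CPM below non-TIC 1 at 75.9 CPM, and Cd24a by -0.34 (0.985 in edgeR). The part of these cell types in the levels of Ctsl, Ctsk and Ctss was not tested, and in bulk samples more cells of a type cannot be told apart from more RNA per cell.

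Promoter sequences were read for the genes that RefSeq's table (GRCm38.p6, 250 bases before to 50 after the start) holds, which were 7 of the 10 and did not include Ctsb, Ctsh and Cstb. The palindrome CACGTG, the E-box core of the motif found at many lysosomal genes, was found in 3 of the 7, Ctsl, Ctsd and Ctsa, while 7.15% of 32851 promoters hold it. A gene was counted when any of its promoters held a motif, whereas the shares over all are per promoter. Ctsa has a further promoter, at chr2:164832622-164832921, without an E-box. The windows are shown, with the E-box in capitals and at most 12 bases on each side, because of these genes only Ctsl was called.
Ctsl: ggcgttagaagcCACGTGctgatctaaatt
Ctsd, distal: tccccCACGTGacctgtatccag
Ctsd, proximal: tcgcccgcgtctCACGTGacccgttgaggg
Ctsa, upstream: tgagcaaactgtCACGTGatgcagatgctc
Ctsa, downstream: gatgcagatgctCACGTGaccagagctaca
They lie at chr13:64370739-64370768 (minus strand), chr7:142388055-142388077 and chr7:142387908-142387937 (minus strand), and chr2:164833749-164833778 and chr2:164833766-164833795 (plus strand). The E-box was thus shared by a gene that was called and by the pair Ctsd and Ctsa, whose levels overlapped. The AP-1 motif TGANTCA, searched on both strands, was in none of the 7 and in 7.81% of all promoters, and the GC box GGGCGG, on either strand, was in 4 of the 7 and in 35.7%. A match of letters is a description and says nothing of binding in these cells.

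Some counts could hold reads of overlapping genes, since the strand setting of the counting is not given in the sources used here. Ctsb shares 774 exon bases with Fdft1 on the opposite strand, which had 438 counts over the 6 samples. Ctsd shares 808 exon bases with Gm49369 on its own strand, a gene that has no row in the files used here. Ctsa shares 495 exon bases with Pltp and 324 with Neurl2, both on the opposite strand and with 11 and 35 counts. The exons of Ctsl overlap the antisense Gm47123 and the pseudogene Gm49230, neither of which has a row in the files used here. Ctsz shares 10 exon bases with Nelfcd on the opposite strand, which had 3851 counts. Ctsk, Ctss, Ctsh, Cst3 and Cstb share no exon with another gene of the annotation.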

How the data were processed

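RNA-seq was done on sorted cells, with 3 TIC libraries and 3 libraries of the non-CD24+CD90+ control and 120 ng RNA per library. The authors trimmed the reads with Trimmomatic (version 0.32), aligned them to GRCm38 with STAR (version 2.4.0), removed non-uniquely mapped reads with SAMtools (version 1.1) and deposited raw counts per Ensembl gene from HTSeq. The annotation release and strand setting are not given in the sources used here. Reads of near-identical copies are lost in such counts.

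Symbols and positions came from GENCODE M21. A gene entered the test when it exceeded 1 CPM in 3 or more libraries. As in the study's methods, exactTest of edgeR was used (version 4.0.16, R version 4.3.3), with p-values adjusted by Benjamini and Hochberg, here over 12192 genes with a threshold of 0.1. TMM factors and common and tagwise dispersions were chosen here. The common dispersion was 0.678. Alternatives were the quasi-likelihood test, DESeq2 version 1.42.0, RLE factors, library size alone, other filters and each sample left out. Levels per kilobase used the principal CCDS transcript of each gene. Identity came from alignments with Biopython version 1.88. The code was tested on simulated data. The members and lists were chosen with earlier results of these data known. All 10 members are named. Of each other list, genes with an adjusted p below 0.1 are named, and where fewer than 3 passed, the 3 with the highest mean CPM. The smallest detectable level covers counting error only. The labels give no batch. P-values set the difference between the groups against the spread between these 3 pools per group, with each gene's dispersion drawn toward the common one.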

Additional observations from a re-analysis of the deposited data

How the results depend on the processing

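The log2 difference of the balance was 0.037 as reported, -0.148 with all 8 proteases and -0.071 without Ctsl. It was 0.010 to 0.099 in the other alternatives with all samples, including merged exon lengths, chosen after seeing the data. When each sample was left out it ran from -0.370 to 0.454, and it was negative without non-TIC 3, TIC 1 or TIC 2. All 13 alternatives moved it by less than 1 SD between samples. Leaving out 1 of 3 samples cannot move it by more, so those fits do not show that the balance is stable. Of 119 combinations of a member and an alternative, 102 kept direction and side of the threshold, 8 lost the call of Ctsl and 1 gained that of Ctsk (without non-TIC 3). Ctsk, with 6 counts in non-TIC 1, has no value under the stricter filter. In 8 the sign turned, for Ctsa (-0.017 as reported) and Ctsd (0.096): Ctsa stood at 0.016 with DESeq2, 0.016 with RLE factors, 0.025 with at least 10 counts in every sample, and -0.243 to 0.243 when each sample was left out, and Ctsd at -0.051 (without TIC 1) to 0.302. The number of members called was 0 with the quasi-likelihood test, with library size alone and with no filter, and 0 to 1 when each sample was left out, where the 1 is Ctsk without non-TIC 3 and Ctsl without TIC 3. Over all genes 189 were called, against 50 with the quasi-likelihood test, 306 with DESeq2 and 112 with no filter, and 72 to 323 when each sample was left out. The lowest was without non-TIC 3 and the highest without TIC 1. The cause was not tested. No paired analysis was possible because the labels give no replicate numbers shared between the groups and do not link pools to mice. Mice that both groups may share were therefore not taken into account in any test. The standard errors of the 10 log2 differences ran from 0.29 to 0.92, which limits what 3 pools a group can show.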
